A study of Mus musculus with 2 samples.

Results

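The Hox genes are the homeobox transcription factors that give cells their position along the head-to-tail axis of the embryo. They were described here by cluster and by paralog group in tissue from above and below the dorsal aorta of the mouse embryo at embryonic day 10.5. Members were all features whose symbol consists of Hox, a cluster letter from a to d and a group number. Of 24675 genes with a symbol, 38 met this rule: 10 of the A cluster on chromosome 6, 10 of the B cluster on chromosome 11, 9 of the C cluster on chromosome 15 and 9 of the D cluster on chromosome 2. Features that the platform annotation does not name were not analysed here. The ventral sample was tissue laser-microdissected from underneath the aorta, and the dorsal sample was tissue lying between the notochord and the aortic roof. Both were cut from the same embryos of strain C57BL/6, with no count of embryos in the labels, and each was hybridised to 1 Affymetrix Mouse Gene 2.0 ST array, labelled biological replicate 4. With 1 array per tissue there was no replicate check, so no difference below has an error or a p-value, and genes were called apart by size alone.

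In each cluster the genes lie in a row, and those at 1 end (low group numbers) are expressed from the hindbrain downwards while those at the other end (high group numbers) are switched on later and only towards the tail. Genes of the same number in different clusters are paralogs that share much of their protein sequence and act partly in place of each other. Hox proteins bind DNA together with TALE homeodomain cofactors of the Pbx, Meis and Pknox families, Cdx factors and retinoic acid switch the genes on, and Polycomb and trithorax complexes keep them off or on. Several Hox genes also act in blood: Hoxb4 and Hoxa9 promote the self-renewal of hematopoietic stem and progenitor cells, and Hoxa3 restrains the hemogenic programme of endothelium.

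Values are log2 expression values. A level was called background when it lay at or under 3.92, the 95th percentile, taken over the 2 arrays together, of 1365 genes for olfactory and vomeronasal receptors, a family not thought to be active in embryonic trunk tissue. Their 99th percentile, 5.48, marks a firmer level. Probe sets differ in brightness, so a gene was set against these marks and against itself in the other tissue, never ranked against another gene. In such bulk tissue, fewer cells of a type and less RNA per cell cannot be told apart. Laser-cut tissue gave 200 to 1000 pg of RNA, per the labels' protocols, and precision is limited by there being 2 arrays.

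Hox genes above background lay in paralog groups 3 to 10 in ventral tissue and 4 to 10 in dorsal tissue. In ventral tissue 12 of 38 members were above background, and in dorsal tissue 12, against 23.8% and 24.2% of all genes with a symbol. Of these, 10 were above it in both tissues: Hoxa5, Hoxa7, Hoxb6, Hoxb9, Hoxc4, Hoxc6, Hoxc8, Hoxd4, Hoxd8 and Hoxd10. Hoxa3 and Hoxc9 were above it in ventral tissue alone and Hoxb7 and Hoxb8 in dorsal tissue alone. That made 14 members above background on at least 1 array, or 10 of the 15 members of groups 4 to 8, 3 of the 7 of groups 9 and 10, 1 of the 7 of groups 1 to 3 and 0 of the 9 of groups 11 to 13. Over all genes, 28.8% were above background on at least 1 array. Of the 1365 receptor genes, 57 were above background in ventral and 80 in dorsal tissue.

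**Figure D1:**
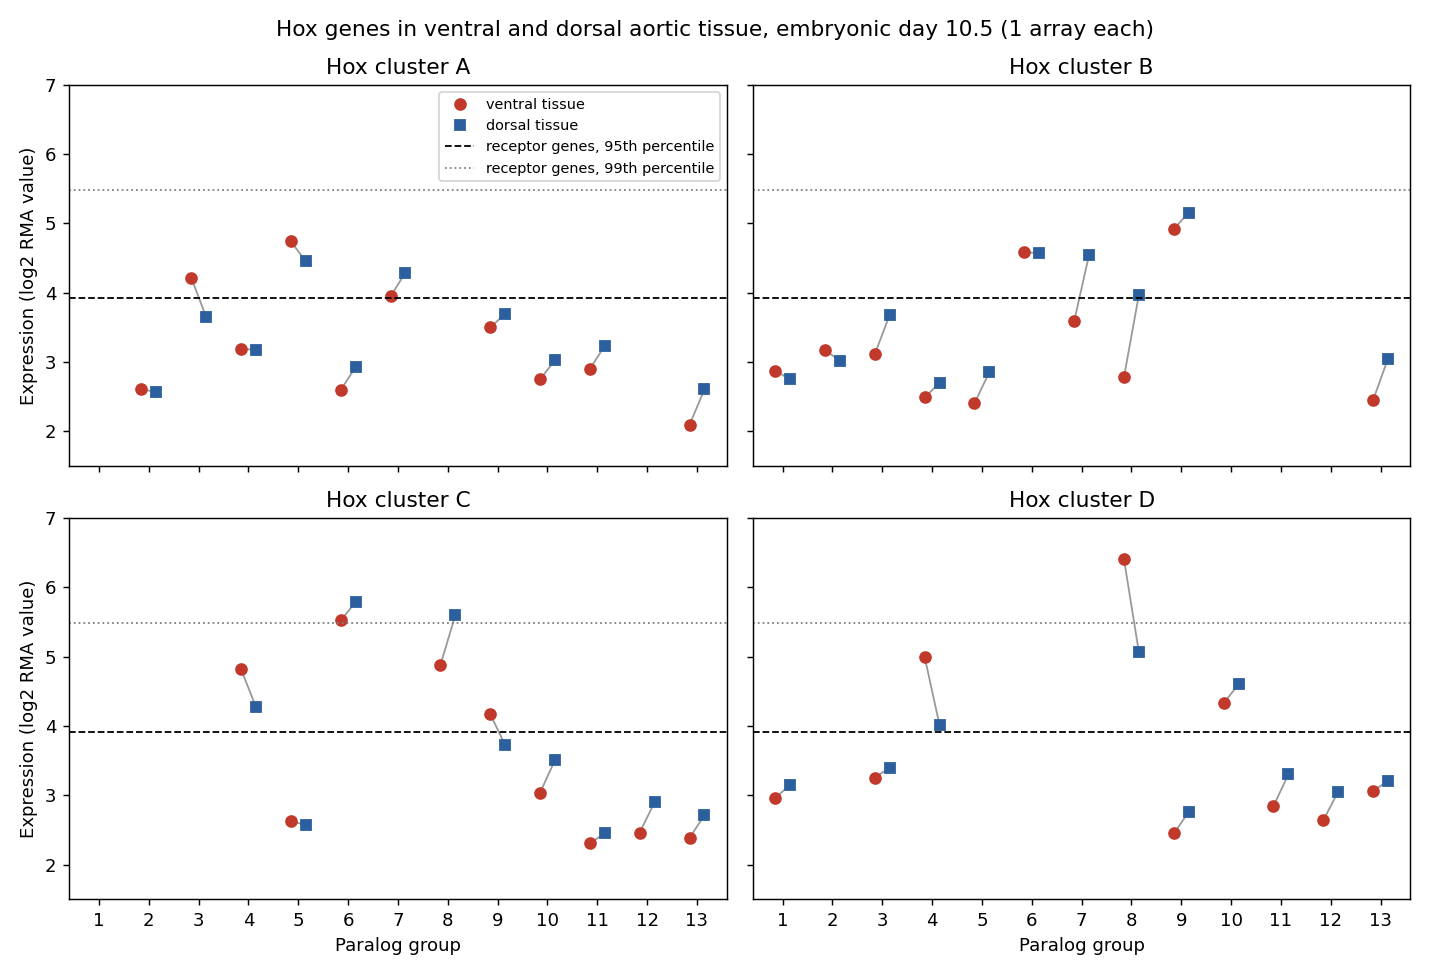
Log2 expression of each Hox gene (vertical axis) by paralog group (horizontal axis), with 1 panel for each cluster. Red circles are the ventral array, blue squares the dorsal array, grey lines join the 2 values of a gene, and the dashed and dotted lines are the 95th (3.92) and 99th (5.48) percentiles of the receptor genes. No gene of groups 1, 2, 11, 12 or 13 lies above the dashed line, and Hoxd8 in ventral tissue, at 6.41, has the greatest gap among genes above it in both tissues.

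Hoxd8 was the member with the clearest difference. It had a level of 6.41 in ventral and 5.06 in dorsal tissue, 2.54-fold higher in ventral tissue, and its ventral level lay above the firmer mark of 5.48. Hoxd8 encodes a central-group Hox protein of the trunk. Its D-cluster companion Hoxd4, which takes part in patterning the neck vertebrae, read 4.998 in ventral tissue and 4.01 in dorsal tissue. This difference was 1.98-fold, just inside the 2-fold limit, and its dorsal level lay just above background. Hoxd3, whose annotated span overlaps that of Hoxd4, was at background in both tissues, at 3.26 and 3.40.

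In the opposite direction, Hoxb8 and its neighbour Hoxb7 were higher in dorsal tissue. Hoxb8, which acts in the spinal cord and trunk and whose forced expression blocks myeloid differentiation, stood at 2.78 in ventral and 3.97 in dorsal tissue. The measured gap of -1.19 passes 2-fold, but the ventral value was at background and the dorsal value just above it, so that the fold is bounded only at 1.04 or more. Hoxb7, a gene of the thoracic region, had a level of 3.59 in ventral and 4.55 in dorsal tissue, a gap of -0.96 and at least 1.55-fold. The next genes of the B cluster on either side, Hoxb6 and Hoxb9, were above background in both tissues and closer: Hoxb6 stood at 4.59 in ventral and 4.57 in dorsal tissue, and Hoxb9, which patterns the ribs with its paralogs, at 4.92 and 5.16.

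Genes were kept for counting when the higher of the 2 values reached 3.10, the median over all genes. Of the 38 members, 24 were kept. Among these, 1 passed 2-fold towards ventral tissue (Hoxd8), against 9.44% of the 13982 kept genes, and 1 passed it towards dorsal tissue (Hoxb8), against 4.88%. A count of 1 in 24 is too small to be told apart from either share. Hoxd4, at 1.98-fold, lay just inside the limit, and the ventral count was 2 after centring and after loess. Of the 10 members above background in both tissues 1 passed 2-fold towards ventral tissue, beside 13.8% of the 4758 genes above background in both, and 0 passed it towards dorsal tissue, beside 6.64%. The median size of the difference in either direction was 0.31 over these 10 members and 0.44 over the 4758 genes.

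**Figure D2:**
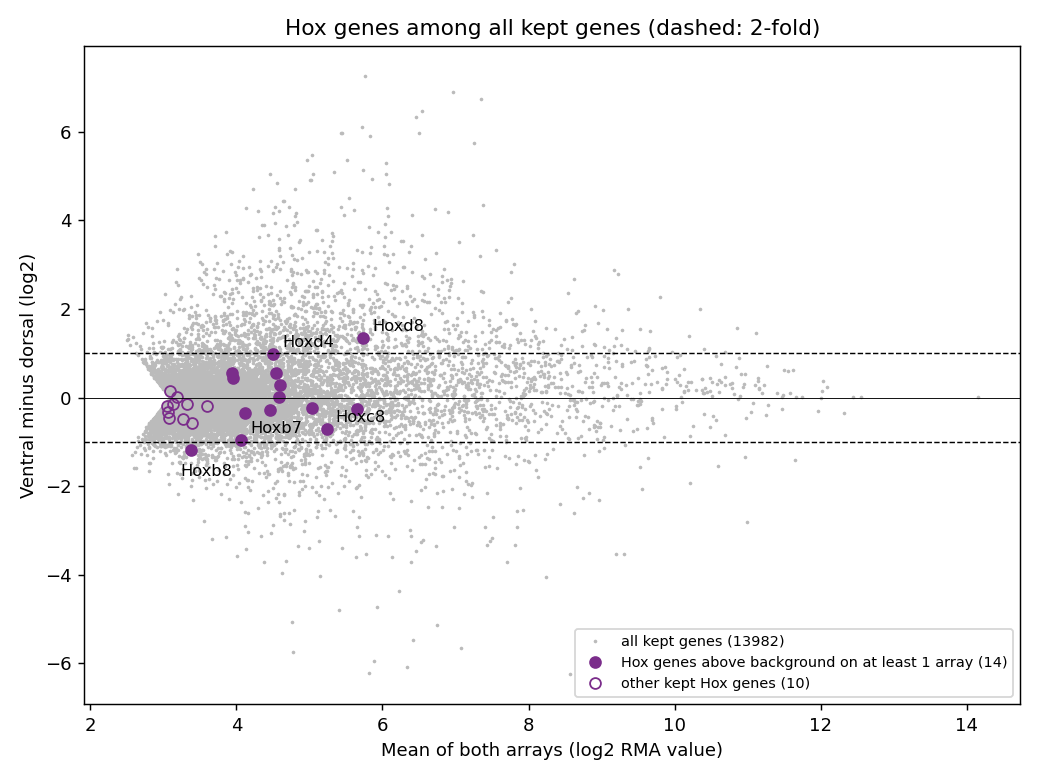
Difference between the tissues, ventral minus dorsal on the log2 scale (vertical axis), against the mean of both arrays (horizontal axis) for all 13982 kept genes in grey and for kept Hox genes in purple. Filled circles are the 14 members above background on at least 1 array and open circles the other 10 kept members. Hoxd8 lies above and Hoxb8 below the dashed 2-fold lines, and the rest lie between them, inside the spread of the grey points.

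The sequences upstream of the 3 members with the greatest differences are shown from the RefSeq promoter table (GRCm38.p6) so that Hoxd8 and Hoxd4, higher in ventral tissue, can be set beside Hoxb8, higher in dorsal tissue. Each runs from 250 bases before to 50 bases after an annotated transcript start, 5′ to 3′ on the + strand, at chr2:74704365-74704664 for Hoxd8, chr2:74721728-74722027 for Hoxd4 and chr11:96281655-96281954 for Hoxb8. Capitals mark matches on either strand to 4 motifs: TGATNNAT, bound by Pbx and Hox proteins together, TGACAG, bound by Meis proteins, TTTATG, bound by Cdx proteins, and TATAAA, the TATA box.
Hoxd8: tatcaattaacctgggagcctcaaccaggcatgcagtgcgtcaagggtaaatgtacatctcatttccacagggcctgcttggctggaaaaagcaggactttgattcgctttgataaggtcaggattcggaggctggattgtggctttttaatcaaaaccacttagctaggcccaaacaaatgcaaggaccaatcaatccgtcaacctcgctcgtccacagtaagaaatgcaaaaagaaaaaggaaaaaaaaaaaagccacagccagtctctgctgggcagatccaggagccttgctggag
Hoxd4: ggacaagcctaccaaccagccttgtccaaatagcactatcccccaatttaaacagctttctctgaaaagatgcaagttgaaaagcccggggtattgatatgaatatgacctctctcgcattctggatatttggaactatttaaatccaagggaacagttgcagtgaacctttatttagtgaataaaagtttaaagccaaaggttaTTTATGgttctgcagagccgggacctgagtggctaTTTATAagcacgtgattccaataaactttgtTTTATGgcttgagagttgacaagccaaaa
Hoxb8: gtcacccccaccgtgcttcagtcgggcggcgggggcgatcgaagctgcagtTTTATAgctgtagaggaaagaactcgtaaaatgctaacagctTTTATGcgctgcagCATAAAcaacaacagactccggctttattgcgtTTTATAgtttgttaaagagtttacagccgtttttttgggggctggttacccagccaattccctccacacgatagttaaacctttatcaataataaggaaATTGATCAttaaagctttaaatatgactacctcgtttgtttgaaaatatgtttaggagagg
The Hoxd8 window held 0 matches. The Hoxd4 window held 2 matches to the Cdx motif and 1 to the letters of the TATA box. The Hoxb8 window held 2 to the Cdx motif, 2 to the TATA letters and 1 to the Pbx and Hox motif. All these TATA matches were on the opposite strand, with first bases at -10 in Hoxd4 and at -199 and -110 in Hoxb8, counted from the start. No matches overlapped in these windows. Of 32851 promoter windows of 300 bases in the table, 8.85% held the Pbx and Hox motif, 19.2% the Meis motif, 11.9% the Cdx motif and 13.6% the TATA box. Among the 24 windows that the table gives for 22 of the Hox genes, 4, 2, 5 and 4 held these motifs in the same order. A match describes letters and is not a binding site, and the absence of one concerns only this window.

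Across paralog group 8 the 3 members differed in direction. Hoxd8 was higher in ventral tissue, by 1.35 on the log2 scale, while Hoxb8 and Hoxc8 had differences of -1.19 and -0.72. These directions held under quantile normalization, centring and loess. Hoxc8, which sets the identity of motor neuron pools of the forelimb level in the spinal cord, read 4.88 in ventral tissue and 5.60 in dorsal tissue, above background in both and within 2-fold. In group 4, Hoxc4 reached 4.82 in ventral and 4.27 in dorsal tissue and so lay on the ventral side with Hoxd4. Hoxa4 and Hoxb4 were at background in both tissues, Hoxa4 at 3.19 and 3.18 and Hoxb4 at 2.49 and 2.70. In group 7 both members lay on the dorsal side, Hoxa7 at 3.95 in ventral and 4.29 in dorsal tissue, its ventral value just above background.

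**Figure D3:**
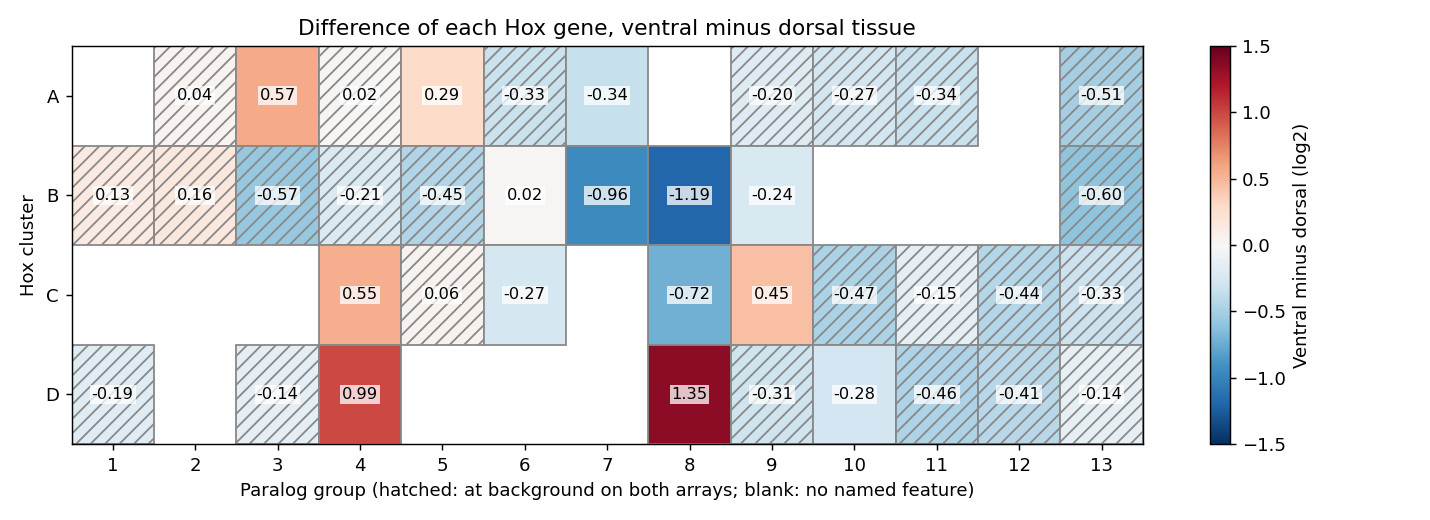
Ventral minus dorsal difference of each Hox gene on the log2 scale, as colour and number, by cluster (rows A to D) and paralog group (columns 1 to 13). Red is higher in ventral and blue higher in dorsal tissue, hatching marks genes at background in both tissues, and blank cells have no named feature. Group 8 holds both the highest value, 1.35 for Hoxd8, and the lowest, -1.19 for Hoxb8.

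The other members above background were within 2-fold. Hoxa3, which patterns the pharyngeal region, had a level of 4.22 in ventral and 3.65 in dorsal tissue, the dorsal value at background. Its annotated span overlaps Hoxa4, Hoxa5 and Hoxa6. Hoxa5, which acts in the lung and the neck-to-thorax skeleton, read 4.74 in ventral tissue and 4.45 in dorsal tissue. Hoxc6, a gene of the thoracic region, was above the firmer mark in both tissues, at 5.52 in ventral and 5.79 in dorsal tissue, and differed by -0.27. Of the same groups, Hoxb3, Hoxa6 and Hoxc5 were at background in both tissues. Hoxb3 stood at 3.11 in ventral tissue against 3.68 in dorsal tissue, Hoxa6 at 2.60 against 2.93, and Hoxc5 at 2.63 against 2.57.

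Of the groups next towards the tail, 3 of 7 members were above background and all 7 were within 2-fold. Hoxc9, which sets the identity of thoracic motor neurons, reached 4.18 in ventral and 3.72 in dorsal tissue, the dorsal value at background. Hoxd10, of the group that suppresses rib formation in the lumbar region, had a level of 4.33 in ventral and 4.60 in dorsal tissue. Hoxa9 was at background in both, at 3.50 in ventral and 3.69 in dorsal tissue. Hoxd9 lay at 2.45 and 2.76, Hoxa10 at 2.75 and 3.02 and Hoxc10 at 3.04 and 3.51, all at background. Nearest to the mark from above were Hoxa7 in ventral and Hoxb8 and Hoxd4 in dorsal tissue, and nearest from below Hoxc9, Hoxa9, Hoxb3 and Hoxa3 in dorsal tissue, the last 2 at 3.68 and 3.65.

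At the ends of the clusters all members were at background. In groups 1 and 2, Hoxb1 stood at 2.88 in ventral tissue against 2.75 in dorsal tissue, Hoxd1 at 2.96 against 3.15, Hoxa2 at 2.61 against 2.57, and Hoxb2 at 3.17 against 3.02. Hoxa2, Hoxb1 and Hoxb2 are best known for patterning the hindbrain. The 9 members of groups 11 to 13, which pattern the sacral and tail region, the kidney, the genital tract and the distal limb, ranged between 2.09 and 3.07 in ventral and between 2.45 and 3.30 in dorsal tissue. All 9 were lower in ventral tissue, with a median difference of -0.41, at levels where a difference was not detectable. Among all 17574 genes at background on both arrays the median difference was -0.12 and 30.7% were higher in ventral tissue. The direction of 7 of the 9, all except Hoxa11 and Hoxd11, turned when a loess on level was subtracted. That loess was fitted to kept genes alone, and only 3 of the 9 were kept.

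Over all 38 members the median difference, ventral minus dorsal, was -0.25, against -0.11 over all genes with a symbol. By any amount, 12 members were higher in ventral and 26 in dorsal tissue, beside 36.6% of all genes with a symbol higher in ventral tissue. Among the 24 kept members the median was -0.19, against -0.12 over all kept genes, and 9 of them, or 37.5%, were higher in ventral tissue, beside 41.3% of all kept genes. The 24 members at background in both tissues had a median of -0.29, with 5 of them higher in ventral tissue. Over the 14 members above background on at least 1 array the median was -0.11, with 7 higher in each tissue, while over all 7101 such genes it was 0.03. By cluster the medians were -0.23 for A, -0.34 for B, -0.27 for C and -0.19 for D. Of the 14 members above background, Hoxb6 was the only one whose direction turned under another scaling, at -0.12 after quantile normalization.

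Annotated spans of 19 members overlap another gene, among them Hoxd8, Hoxd4 and Hoxa3, so the values of such genes may share transcripts. Of 15 measured noncoding RNAs of the clusters, 4 were above background on at least 1 array, beside 28.8% of all genes with a symbol. Of the 10 kept, 0 were at least 2-fold apart, beside 9.44% of all kept genes towards ventral and 4.88% towards dorsal tissue. Hotairm1, the long noncoding RNA at the front end of the A cluster, reached 7.81 in ventral and 8.33 in dorsal tissue. Hoxb3os stood at 4.31 in ventral and 4.43 in dorsal tissue and Hoxaas2 at 4.06 and 4.30, while Mir615 was above background in dorsal tissue alone, at 3.52 in ventral and 3.94 in dorsal tissue. The hairpin features of the microRNAs Mir10a, Mir10b, Mir196a-1 and Mir196a-2, which lie within the clusters, were at background in both tissues. Hotair and Hottip, noncoding RNAs of the C and A clusters linked in human cells to Polycomb and trithorax, were likewise at background, at 2.94 and 2.61 in ventral and 3.24 and 2.84 in dorsal tissue.

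TALE cofactors were higher in ventral tissue wherever both levels were above background. Of 8 measured cofactors 5 were above background in both tissues, and all 5 were higher in ventral tissue, 2 of them by at least 2-fold. Among all genes above background in both tissues, 52.7% were higher in ventral tissue by any amount and 13.8% by at least 2-fold. Meis1, which binds DNA with Hox proteins and is needed for definitive blood formation, had a level of 7.33 in ventral and 4.75 in dorsal tissue, a 5.98-fold difference. Pbx3 read 5.74 in ventral tissue and 4.31 in dorsal tissue, a 2.70-fold difference. Pknox2 was measured at 5.59 and 4.65, Meis2 at 5.26 and 4.42 and Pbx2 at 4.41 and 4.02, in ventral and dorsal tissue in that order, and these were within 2-fold. The direction of these 5 was the same under quantile normalization, centring and loess, and Pknox2 passed 2-fold after centring, at 1.05. Meis3, Pknox1 and Pbx4 were at background in both tissues.

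Chromatin regulators that hold Hox genes on or off were among the genes apart in the ventral direction. Of 13 kept Polycomb genes 3 passed 2-fold towards ventral tissue and 0 towards dorsal tissue, beside 9.44% and 4.88% of all kept genes. Of the Polycomb genes 10 were above background on at least 1 array, a state shared by 50.8% of all kept genes. Among all 7101 genes above background on at least 1 array, 1258 passed 2-fold towards ventral and 601 towards dorsal tissue. Suz12, a core subunit of Polycomb repressive complex 2, read 6.32 in ventral and 2.43 in dorsal tissue, at least 5.27-fold. Ezh2, the methyltransferase of the same complex, was 2.24-fold higher at 8.22 in ventral against 7.06 in dorsal tissue, and Jarid2, an accessory subunit, at least 2.16-fold. Eed, the remaining core subunit, lay on the other side, at 5.73 in ventral and 6.35 in dorsal tissue, within 2-fold. Ezh2 was within 2-fold after quantile normalization, at 0.89, and after loess, at 0.92. The median of the kept Polycomb genes was -0.04, with 7 of the 13 lower in ventral tissue.

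Of 13 kept trithorax and related genes 5 passed 2-fold towards ventral tissue and 0 towards dorsal tissue, beside the same 9.44% and 4.88%. These counts use the measured values, also for Kdm6a and Wdr5, whose dorsal values were at background. Of the 13 genes 12 were above background on at least 1 array, against 50.8% of all kept genes. Among all 7101 genes above background on at least 1 array, 1258 passed 2-fold towards ventral and 601 towards dorsal tissue. Ash2l, a shared subunit of the histone H3 lysine 4 methyltransferase complexes, had a level of 6.27 in ventral and 4.31 in dorsal tissue, 3.89-fold. Kmt2a, the methyltransferase that maintains Hox expression, read 5.70 in ventral tissue and 4.12 in dorsal tissue, 2.99-fold. Psip1, which tethers that enzyme to chromatin, was 2.11-fold higher in ventral tissue, Kdm6a, a demethylase that removes the Polycomb mark, at least 1.86-fold and Wdr5, another shared subunit, at least 1.31-fold. Dpy30, a further shared subunit, lay on the dorsal side at 5.26 in ventral and 6.24 in dorsal tissue. Psip1 was within 2-fold after quantile normalization, at 0.84, and after loess, at 0.81, and Dpy30 passed 2-fold towards dorsal tissue under the same scalings, at -1.28 and -1.11. The median of the 13 was 0.23.

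**Figure D4:**
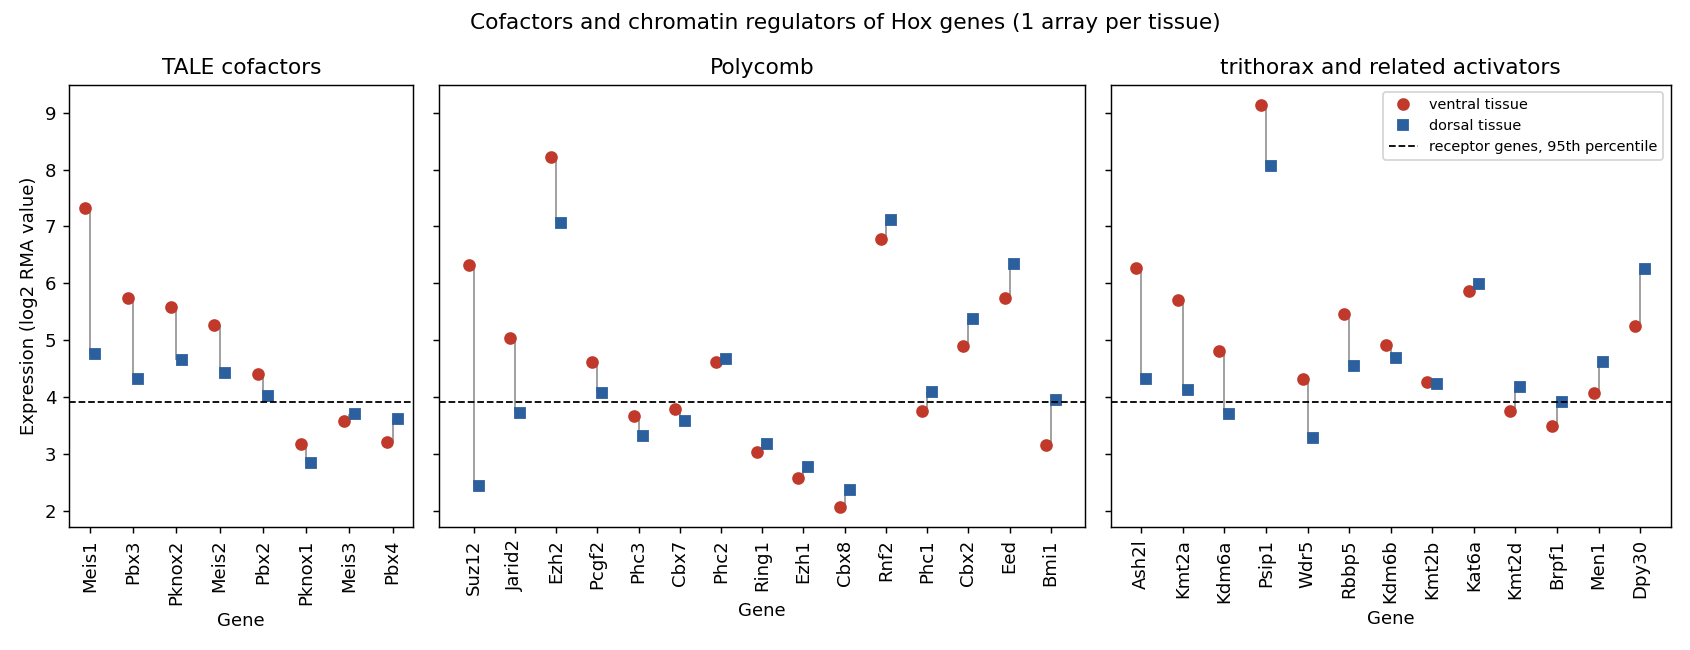
Log2 expression (vertical axis) of TALE cofactors, Polycomb genes and trithorax and related genes (horizontal axis, ordered by difference) on the ventral array (red circles) and the dorsal array (blue squares), with the 95th percentile of the receptor genes dashed. The 5 TALE genes above the dashed line in both tissues are all higher in ventral tissue, Meis1 at 7.33 against 4.75, while the chromatin lists hold genes on either side.

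Signals and factors upstream of Hox genes were mostly at background. Of 15 kept genes 1, Gmnn, passed 2-fold towards ventral tissue, beside 9.44% of all kept genes. Gmnn encodes geminin, a replication inhibitor that can also bind Hox proteins, and reached 6.14 in ventral and 4.77 in dorsal tissue, 2.60-fold. Cdx1, Cdx2 and Cdx4 were at background in both tissues. Aldh1a2, the enzyme that makes retinoic acid, had a level of 4.50 in ventral and 3.56 in dorsal tissue, the dorsal value at background; its difference of 0.94 passed 2-fold after centring, at 1.05, and loess, at 1.02. Acvr2a, a receptor for Gdf11, read 4.70 in ventral tissue and 3.92 in dorsal tissue, the dorsal value again at background. Rarb, a retinoic acid receptor, and Cyp26b1, which breaks retinoic acid down, were at background in both.

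Of 7 kept genes reported as Hox targets, 2 passed 2-fold towards ventral tissue and 2 towards dorsal tissue by their measured values. In each of these the lower value was at background. Epha7, an ephrin receptor regulated by group 13 proteins in the limb, stood at 6.64 in ventral tissue against 3.77 in dorsal tissue, at least 6.61-fold. Kdr, a VEGF receptor regulated by Hoxb5, stood at 4.83 in ventral tissue against 3.75 in dorsal tissue, at least 1.88-fold. Hoxb5 itself was at background in both tissues, at 2.41 and 2.86. Shh, a notochord signal that Hoxd proteins regulate in the limb, stood at 3.91 in ventral tissue, which is at background, against 5.12 in dorsal tissue. Bmp7, at 3.85 in ventral tissue against 4.85 in dorsal tissue, fell just inside 2-fold after centring, at -0.88, and after loess, at -0.96. Of 7 kept genes that lie beside the clusters 0 were at least 2-fold apart. Mtx2, next to the front end of the D cluster, read 6.71 in ventral tissue and 7.56 in dorsal tissue, the opposite direction to Hoxd4 and Hoxd8, and passed 2-fold after quantile normalization, at -1.16, and loess, at -1.07. Over all these pathway lists together, 13 of 73 kept genes passed 2-fold towards ventral tissue and 2 towards dorsal tissue, beside 9.44% and 4.88% of all kept genes.

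Hox levels differ between the cell types that such pieces can hold, and markers of several of them differed between the tissues. Of 8 coelomic epithelium and visceral mesenchyme markers 6 were above background in ventral and 0 in dorsal tissue, and their summed level was 8.22 in ventral and 6.41 in dorsal tissue on the log2 scale. By at least 2-fold, 4 of these 8 were higher in ventral tissue by their measured values. Of all genes with a symbol, 23.8% were above background in ventral and 24.2% in dorsal tissue. Of all kept genes, 9.44% passed 2-fold towards ventral and 4.88% towards dorsal tissue. Of 7 sclerotome markers 3 were above background in ventral and 4 in dorsal tissue, with sums of 6.83 and 7.72, and 2 passed 2-fold towards dorsal tissue. For 7 neural tube and neuron markers the counts were 2 and 2 and the sums 6.47 in ventral and 7.06 in dorsal tissue, with Sox2, Pax6 and Olig2 at background in both and 1 gene, Tubb3, at least 2-fold higher in dorsal tissue. For 5 myotome markers the counts were 2 and 3 and the sums 6.21 and 6.51, and for 5 endothelial markers the counts were 4 and 2 and the sums 7.68 and 6.12, ventral before dorsal; 0 of the myotome genes were 2-fold apart and 3 endothelial genes passed 2-fold towards ventral tissue. Lists for nephric and limb mesoderm and gut endoderm each had 1 gene above background in both tissues and 0 at least 2-fold apart. Both notochord genes were above background in dorsal tissue alone and at least 2-fold higher there by their measured values. Of 5 erythroid markers 4 were above background in each tissue, and 1 of them, Klf1, was 2.14-fold higher in dorsal tissue, at 4.25 in ventral and 5.35 in dorsal tissue. The part of these cell types in the Hox values was not tested.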

How the data were processed

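Tissue from underneath the dorsal aorta and from between it and the notochord was laser-microdissected from 20 µm cryosections and its amplified RNA hybridised to 1 array per tissue, per the labels' protocols. The authors deposited a log2 expression value for each gene on each array, made with RMA in Affymetrix Expression Console, per the submitters' processing notes. Neither the versions, the genome build nor the set of arrays normalized as 1 batch is given in the sources used here. The table held 25429 features named by Entrez number. The platform annotation gave 1 symbol for 24675 and none for 754, which were left out. Each of the 24675 symbols stood unchanged in the RefSeq table of GRCm38.p6, used for names, neighbours and promoter windows.

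Each gene's dorsal log2 value was subtracted from its ventral one, and no test was made. A gene was kept if its higher value reached 3.10, the median of the gene means. A fold whose lower value was at background is a bound, the brighter value against 3.92, and none is printed where both were at background. That mark is a percentile, not a detection call. Counts past 2-fold use the measured difference, also where the fold is given as a bound. All Hox genes and TALE cofactors were named whatever their values, and of the other lists those at least 2-fold apart and up to 4 more with the greatest differences; Hotair, Hottip, Hoxb3os, Hoxaas2 and the Mir10, Mir196a and Cdx genes and single marker genes were added after their values were seen, to show a level. The members and lists were chosen with earlier results of these data known. The 2-fold cut and quantile normalization were checked on simulated data, and the fold bounds on made cases. Centring, the loess and the floor were not checked in this way. Alternatives were quantile normalization, centring, subtraction of a loess on level fitted to kept genes (span 0.3), and other floors, folds and background marks. The software was Python 3.11.15 with numpy 2.4.6, pandas 2.3.3, statsmodels 0.14.6 and matplotlib 3.10.9.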

Additional observations from a re-analysis of the deposited data

How the results depend on the processing

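No paired analysis was possible because there was 1 array per tissue, which also means that no array could be left out. The count of members past 2-fold towards ventral tissue was 2 in place of 1 with centring on the median of kept genes, with the loess on level and at 1.5-fold, and 0 at 3-fold; Hoxd4, at 1.10 after centring and 1.002 after loess, was the gene added by the scalings. The count higher in dorsal tissue became 3 at 1.5-fold and 0 at 3-fold and stayed at 1 under the scalings and floors. With the background mark at the receptor genes' 99th percentile, 2 members lay above it in ventral and 2 in dorsal tissue. At the 90th percentile the counts were 14 and 18, and with each array's own 95th percentile 12 and 10. The members that fell to background in dorsal tissue under that last mark were Hoxb8 and Hoxd4. The median difference over all members, -0.25, became -0.17 after quantile normalization, -0.13 after centring, 0.17 after loess and -0.16 as a mean, and over the members at or above the 3.10 floor and the 3.92 mark -0.19 and -0.11; the first of these 2 floors was added after seeing the data, and with no floor the median is the reported value itself. The number of members higher in ventral tissue, 12, became 25 after loess. The loess was fitted to kept genes alone and was also subtracted from members that were not kept. At a mean level under the 3.10 floor, a kept gene must have a gap between its 2 values. There the loess moved Hoxa2 from 0.04 to 0.91 and Hoxc11 from -0.15 to 0.85. The part of this fit in the count of 25 and in the median of 0.17 was not tested. Counts over the pathway lists, 13 and 2, became 21 and 8 at 1.5-fold and 4 and 0 at 3-fold; the dorsal count was 4 after quantile normalization and 1 after centring. Centring and loess moved the median of all kept genes by 0.12 each, and the share of ventral among genes apart was 59.2% after quantile normalization, 74.3% after centring and 65.9% as reported. For groups 1, 2 and 11 to 13, levels near background limit what the arrays can show.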
